A study of Mus musculus with 6 samples.

Results

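Integrins are cell-surface receptors made of an alpha and a beta chain, and laminins are basement membrane proteins made of an alpha, a beta and a gamma chain. Their genes were taken as the protein-coding genes of the deposited count table whose symbols name an integrin alpha or beta chain or a laminin alpha, beta or gamma chain. This gave 37 of 54532 genes, of which 8 encode chains of leukocyte integrins, 18 chains of integrins that bind matrix proteins and 11 laminin chains. RNA was sequenced from inguinal white adipose tissue, the subcutaneous fat pad of the groin. It came from mice described as old aged, in 3 estrogen-treated and 3 vehicle-treated libraries, and all were exposed to cold for 7 days. The study asks what estrogen does to beige adipocytes, heat-producing fat cells that cold induces in this depot. The strain, sex, exact age, estrogen dose and route, and any group kept out of the cold were not given in the sources used here. The labels do not tie each library to its own animal, and p-values therefore reflect the spread among these libraries, which may not be the spread among animals.

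Each integrin pairs an alpha chain with a beta chain, and the pair sets the ligand. The chains that pair with beta2 are made by leukocytes and bind counter-receptors on other cells and complement fragments. Most chains that pair with beta1, and those that pair with alphaV, bind collagens, laminins or proteins such as fibronectin and vitronectin that carry an RGD motif. Laminins join their alpha, beta and gamma chains into a cross-shaped trimer that polymerises into the basement membrane, the thin sheet of matrix that surrounds each adipocyte and underlies the endothelium. The receptors and the matrix are linked inside the cell to actin by talins, kindlins and other adaptors.

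Total counts were 19263623, 16046601 and 16473388 in estrogen replicates 1, 2 and 3, and 19102059, 19014779 and 20736771 in vehicle replicates 1, 2 and 3. Values below are given in that replicate order, as CPM (counts scaled by library total and TMM factor). Summed CPM of 6 adipocyte markers was 16453, 16940.4 and 25349 CPM with estrogen, against 15100.0, 11585 and 15514 CPM with vehicle, and epithelial markers of the mammary gland were nearly absent (0.393 to 0.836 CPM with estrogen and 0.521 to 3.05 CPM with vehicle, with Krt5 and Krt14 at 0 in all 6 libraries). Several libraries stood apart in their cell markers. The skeletal muscle markers summed to 7007, 4.39 and 2.65 CPM with estrogen, against 3.05, 11.3 and 59.3 CPM with vehicle, high in estrogen replicate 1. The B cell markers summed to 151, 6.02 and 99.0 CPM with estrogen, against 3.96, 5.31 and 6.64 CPM with vehicle, high in estrogen replicates 1 and 3. Progenitor and fibroblast markers summed to 2767, 3827 and 930.3 CPM with estrogen, against 6483, 15340.3 and 5525 CPM with vehicle, lowest in estrogen replicate 3 and highest in vehicle replicate 2. Neutrophil markers summed to 25.8, 28.3 and 32.9 CPM with estrogen, against 161, 35.3 and 32.2 CPM with vehicle, high in vehicle replicate 1. In bulk tissue, fewer cells of a type and less RNA per cell cannot be told apart.

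With estrogen, 23 of the 34 integrin and laminin genes that passed the low-count filter had a negative log2 fold change and 11 a positive one, with a median of -0.45. Over all 15591 tested genes the share with a negative value was 49.7% and the median was 0.00. The 9 lowest log2 fold changes, -1.72 to -1.04, included those of the myeloid chains Itgax, Itgam and Itgb2, the matrix receptor chains Itga11, Itga5, Itgb3 and Itga2, and the laminin chain Lama2. The members together took 0.233, 0.208 and 0.149% of all counts with estrogen, against 0.267, 0.364 and 0.319% with vehicle. No member passed an adjusted p of 0.05 in edgeR's quasi-likelihood test, where 0 of 15591 genes did (0%), and the smallest adjusted p of a member was 0.207. At an unadjusted p under 0.05, edgeR had 13 of 34 members lower and 0 higher, against 10.9% of all tested genes lower and 9.49% higher. DESeq2 called 5 of 34 members lower (Itgax, Itgav, Itga5, Itgb3 and Itga11) and 0 higher at an adjusted p under 0.05, against 2.97% of its tested genes lower and 2.38% higher. All estrogen libraries lay below all vehicle libraries for 11 of the 34 members and above them for 0, against 14.7% and 12.8% of all tested genes. In edgeR, the 13 lower members became 5 when vehicle replicate 2 was dropped and 7 when estrogen replicate 3 was dropped. They became 15 when vehicle replicate 1 was dropped. With limma-voom, 10 members were lower at an unadjusted p under 0.05, 0 were higher and 0 passed the adjusted threshold. How many of all tested genes reached the unadjusted threshold in these fits was not counted. Whether the changes in member counts are particular to the members therefore cannot be told.

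**Figure D1:**
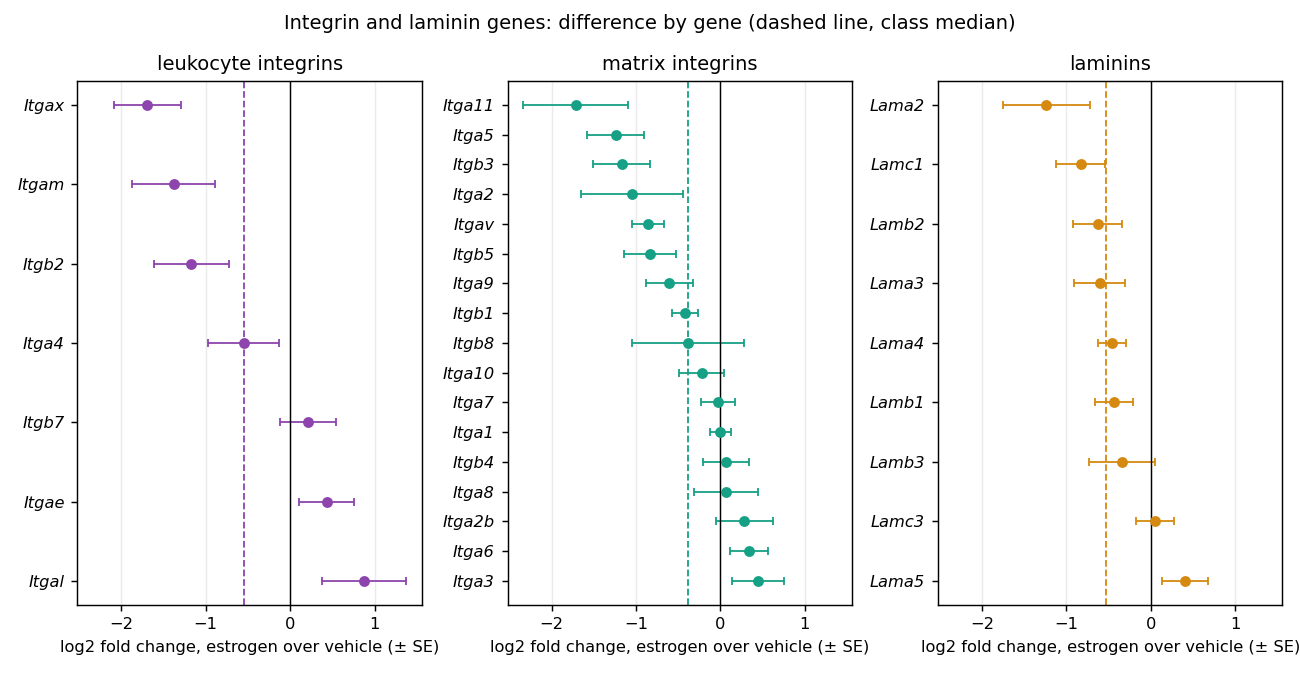
Log2 fold change, estrogen over vehicle, with its standard error (horizontal axis) for tested genes, in panels for leukocyte integrins, matrix integrins and laminins; the dashed line is the class median. The medians lie at -0.55, -0.38 and -0.53, with Itgax at -1.69 and Itgal at 0.87 as the ends of the leukocyte panel.

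Of the 8 leukocyte integrin genes, Itgax was the only 1 that DESeq2 called lower with estrogen, against 2.97% of its tested genes, and edgeR called 0. Of the 8 genes 7 were tested, 4 with a negative and 3 with a positive log2 fold change, and the median was -0.55. Itgax, Itgam and Itgb2 were lower in every estrogen library than in every vehicle library, and each had an unadjusted p under 0.05. These were 3 of the 7 tested genes. Of all tested genes, 14.7% were lower without overlap and 10.9% were lower at that p in edgeR. The log2 fold changes of Itgal, Itgb7 and Itgae were positive, and the difference between chains was not tested. The class median rested on few genes: it was -1.25 without estrogen replicate 1, -0.30 without estrogen replicate 2 and -0.31 without estrogen replicate 3. In DESeq2 it was -0.86 and with no low-count filter -0.88, both over 8 genes, as Itgad, at 0 to 9 counts per library, then entered.

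Itgax encodes CD11c, the alpha chain of a complement receptor of dendritic cells and of some adipose macrophages (ENSMUSG00000030789, chromosome 7, 128129547 to 128150657, mm10). It measured 11.4, 7.66 and 3.48 CPM with estrogen, against 23.3, 30.4 and 19.7 CPM with vehicle. The highest estrogen library was below the lowest vehicle library, and the log2 fold change was -1.69 ± 0.40 (SE), so that the vehicle level was 3.23-fold the estrogen level (edgeR adjusted p = 0.207; DESeq2 adjusted p = 0.00556). Itgam encodes CD11b, the alpha chain of complement receptor type 3 on macrophages and neutrophils (ENSMUSG00000030786, chromosome 7, 128062640 to 128118491). Its level was 27.8, 31.9 and 8.01 CPM with estrogen, against 82.4, 52.2 and 42.0 CPM with vehicle. Estrogen replicate 3 was the lowest library and vehicle replicate 1 the highest, and the log2 fold change was -1.38 ± 0.49 (SE) (edgeR adjusted p = 0.212; DESeq2 adjusted p = 0.0565). Itgb2 encodes CD18, the beta2 chain with which the CD11 alpha chains pair (ENSMUSG00000000290, chromosome 10, 77530252 to 77565708). Its level was 84.8, 94.7 and 26.5 CPM with estrogen, against 189, 160.4 and 114 CPM with vehicle. These groups did not overlap either, and the log2 fold change was -1.17 ± 0.45 (SE) (edgeR adjusted p = 0.221; DESeq2 adjusted p = 0.0793).

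The Itgal, Itgam, Itgax and Itgad genes stand in this order on the plus strand of chromosome 7. Itgal ends 727501 bases before Itgam, while 11055 bases separate Itgam from Itgax and 3718 bases Itgax from Itgad. The 250 bases before the RefSeq starts of Itgam and Itgax (GRCm38.p6) are shown because these neighbours had the lowest log2 fold changes of the tested leukocyte chains. The Itgam sequence is chr7:128062390-128062639 on the plus strand and the Itgax sequence chr7:128129300-128129549 on the plus strand. Capitals mark GAGGAA, a string found in sites for the myeloid factor PU.1 and called the core here, or TTCCTC where it lies on the opposite strand. Other forms of such sites were not searched.
Itgam: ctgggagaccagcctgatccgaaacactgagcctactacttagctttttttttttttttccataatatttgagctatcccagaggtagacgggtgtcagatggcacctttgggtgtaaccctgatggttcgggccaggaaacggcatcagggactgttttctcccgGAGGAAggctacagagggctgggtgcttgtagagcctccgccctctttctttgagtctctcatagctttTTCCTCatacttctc
Itgax: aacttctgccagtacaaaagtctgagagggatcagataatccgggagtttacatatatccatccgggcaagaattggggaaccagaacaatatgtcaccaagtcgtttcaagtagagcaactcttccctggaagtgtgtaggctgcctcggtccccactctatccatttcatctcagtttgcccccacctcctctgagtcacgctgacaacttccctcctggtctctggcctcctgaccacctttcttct
Itgam held the core 84 and 15 bases before its start, and again 32 bases after it, outside the bases shown. The Itgax sequence did not hold this exact string.

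Itgal, which encodes CD11a, the alpha chain of LFA-1 on lymphocytes and other leukocytes, measured 25.3, 6.68 and 13.9 CPM with estrogen, against 11.9, 5.06 and 8.16 CPM with vehicle. The groups overlapped, estrogen replicate 1 was highest, and the log2 fold change was 0.87 ± 0.50 (SE) (edgeR adjusted p = 0.345). It was 0.28 without estrogen replicate 1, the library highest in T and NK cell markers. With estrogen replicates 1 and 3 both left out, the libraries high in B cell markers, it was -0.32 and rested on a lone estrogen library. Without those libraries the log2 fold change of Itgax was -1.66. That of Itgam was -0.87 and that of Itgb2 -0.70, with unadjusted edgeR p-values of 0.0641 and 0.0606, so that neither was under 0.05 any longer. Itgb7, the beta chain of gut-homing and epithelium-binding lymphocytes, was at 31.3, 25.9 and 11.6 CPM with estrogen, against 17.4, 20.5 and 21.7 CPM with vehicle. Its groups overlapped, with a log2 fold change of 0.21 ± 0.33 (SE) (edgeR adjusted p = 0.735) that was -0.09 without estrogen replicate 1. Itga4, an alpha chain that binds VCAM-1 and fibronectin, was at 16.4, 5.70 and 5.99 CPM with estrogen, against 14.8, 15.6 and 10.9 CPM with vehicle. Estrogen replicate 1 was the highest library while the other two estrogen libraries lay below all vehicle libraries, with a log2 fold change of -0.55 ± 0.42 (SE) (edgeR adjusted p = 0.473) and -1.25 without estrogen replicate 1. Itgae encodes CD103, which pairs with beta7 and binds E-cadherin, and was at 4.92, 2.42 and 4.67 CPM with estrogen, against 3.05, 2.73 and 3.12 CPM with vehicle. These groups overlapped, with a log2 fold change of 0.43 ± 0.32 (SE) (edgeR adjusted p = 0.465) that was -0.28 without both B cell-rich libraries. Itgad, CD11d, had 3, 0 and 0 counts with estrogen, against 4, 1 and 9 counts with vehicle, and was not tested.

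**Figure D2:**
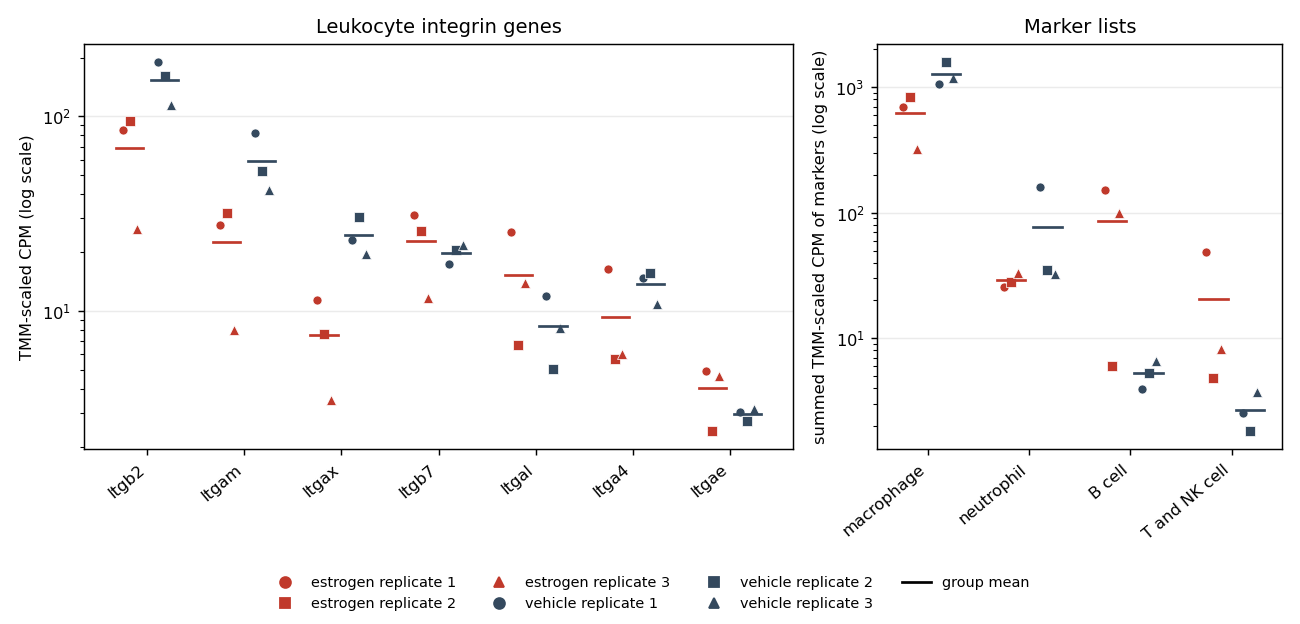
CPM on a log axis of the 7 tested leukocyte integrin genes (left) and summed CPM of 4 marker lists (right) in each library, estrogen in red and vehicle in dark blue, with symbols for replicates 1 to 3 and lines for group means. Itgb2, Itgam and Itgax separate the groups, as macrophage markers do, while B cell markers reach 151 and 99.0 CPM in estrogen replicates 1 and 3.

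The part of leukocyte numbers in these differences was not tested, and the marker lists give their levels. Macrophage markers summed to 697, 836 and 321 CPM with estrogen, against 1059, 1578 and 1193 CPM with vehicle, and all 6 had a negative log2 fold change. The pan-leukocyte markers summed to 396, 288 and 163 CPM with estrogen, against 487, 425 and 332 CPM with vehicle, and the 5 dendritic cell markers to 36.8, 37.8 and 37.4 CPM with estrogen, against 37.4, 37.6 and 47.5 CPM with vehicle. Adgre1 encodes F4/80, a macrophage surface protein, and Itgax per Adgre1, both per kilobase, was 0.170, 0.0724 and 0.146 with estrogen, against 0.129, 0.153 and 0.146 with vehicle. Itgam per Adgre1 was 0.397, 0.288 and 0.321 with estrogen, against 0.437, 0.251 and 0.297 with vehicle. Both ratios overlapped between the groups. Itgax per Cd68, the gene of a lysosomal protein of macrophages, was 0.0431, 0.0179 and 0.0395 with estrogen, against 0.0490, 0.0564 and 0.0470 with vehicle. This ratio was lower in every estrogen library than in every vehicle library. Itgb2 per Ptprc, the gene of the pan-leukocyte protein CD45, was 5.62, 18.6 and 5.64 with estrogen, against 17.2, 17.4 and 15.6 with vehicle, so that estrogen replicates 1 and 3 stood apart from the other 4 libraries. T and NK cell markers summed to 49.0, 4.85 and 8.22 CPM with estrogen, against 2.54, 1.82 and 3.73 CPM with vehicle. Each estrogen library lay above each vehicle library, and estrogen replicate 1 was far above all others.

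Among the alpha chains that pair with beta2, the shares of Itgal and Itgax did not overlap between the groups. As a share of their summed CPM per kilobase, Itgal made up 32.7, 11.3 and 47.6% with estrogen, against 7.83, 4.40 and 8.999% with vehicle. Each estrogen library lay above each vehicle library, with estrogen replicate 2, which had few B cell markers, nearest to them. In CPM, Itgal of that library (6.68) lay within the vehicle range, and the share also depends on Itgam and Itgax, which were lower with estrogen. Itgal per Itgb2, both per kilobase, was 0.139, 0.0328 and 0.243 with estrogen, against 0.0292, 0.0147 and 0.0333 with vehicle, with overlap. The share of Itgax was 20.1, 17.8 and 16.4% with estrogen, against 21.0, 36.2 and 29.8% with vehicle, and the groups again did not overlap. Itgam took 46.9, 70.8 and 36.0% with estrogen, against 71.0, 59.4 and 60.6% with vehicle, with overlap. With 3 libraries against 3, a two-sided exact permutation test cannot go below p = 0.1, and no other test was made on these shares.

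The 9 counter-receptors of leukocyte integrins were split in direction. Of these 4 had a negative and 5 a positive log2 fold change, with a median of 0.04, and edgeR and DESeq2 called 0 at an adjusted p under 0.05. In edgeR 1 of 9 was higher and 0 were lower at an unadjusted p under 0.05, against 9.49% of all tested genes higher. This was Icam2, an endothelial ligand of LFA-1, at 14.3, 14.1 and 15.0 CPM with estrogen, against 12.1, 11.1 and 11.3 CPM with vehicle. Its groups did not overlap, with a log2 fold change of 0.33 ± 0.13 (SE) (edgeR adjusted p = 0.229). F11r, a junctional adhesion molecule, had a log2 fold change of 0.35, Thy1, a glycoprotein of fibroblasts and other cells, of -1.06, and Cdh1, E-cadherin, of -1.64 at under 3 CPM in every library.

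Among matrix integrins, DESeq2 called Itgav, Itga5, Itgb3 and Itga11 lower with estrogen, 4 of 17 against 2.97% of its tested genes, while edgeR called 0. Of 18 genes 17 were tested, 11 with a negative and 6 with a positive log2 fold change, and the median was -0.38. All 6 matrix members with an unadjusted p under 0.05 in edgeR were lower, 6 of 17 against 10.9% of all tested genes, and DESeq2 called 0 higher. Grouped by ligand, the RGD receptor chains had a median of -0.83 (5 of 7 negative), the collagen receptor alpha chains of -0.63 (3 of 4 negative) and the laminin receptor chains of 0.20 (1 of 4 negative). The groups by ligand were drawn up with the values known, and the difference between them was not tested. Itga5, Itgb3 and Itgb5 were lowest in estrogen replicate 3 and highest in vehicle replicate 2, as were the progenitor and fibroblast markers, and the part of these markers in the matrix integrin differences was not tested.

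Itga5 encodes the alpha chain of the main fibronectin receptor (ENSMUSG00000000555, chromosome 15, 103344286 to 103366763). It was at 34.9, 50.4 and 20.3 CPM with estrogen, against 81.1, 105 and 63.5 CPM with vehicle. The groups did not overlap and estrogen replicate 3 was lowest, with a log2 fold change of -1.24 ± 0.34 (SE) (edgeR adjusted p = 0.207; DESeq2 adjusted p = 0.0214). Itgav encodes alphaV, which binds vitronectin and activates latent TGF-beta (ENSMUSG00000027087, chromosome 2, 83724397 to 83806916). It was at 31.7, 29.7 and 20.8 CPM with estrogen, against 51.5, 55.7 and 41.8 CPM with vehicle. The groups did not overlap, and the log2 fold change was -0.86 ± 0.19 (SE) (edgeR adjusted p = 0.207; DESeq2 adjusted p = 0.0176). The alphaV partner Itgb3, also the beta chain of the platelet fibrinogen receptor, was at 12.9, 13.9 and 7.59 CPM with estrogen, against 27.7, 34.1 and 15.5 CPM with vehicle. Its groups did not overlap, with a log2 fold change of -1.17 ± 0.34 (SE) (edgeR adjusted p = 0.207; DESeq2 adjusted p = 0.0353). Platelet and megakaryocyte markers summed to 50.8, 80.8 and 18.2 CPM with estrogen, against 219, 92.7 and 70.1 CPM with vehicle. The 3 tested markers did not move together, 2 with a negative and 1 with a positive log2 fold change (-2.61 to 1.30). At an unadjusted p under 0.05 in edgeR, 1 of them was higher and 0 were lower. The part of these markers in the difference was not tested. Itgb5, another partner of alphaV and more abundant per kilobase than Itgb3, Itgb6 and Itgb8 in all 6 libraries, was at 70.5, 84.1 and 43.5 CPM with estrogen, against 93.2, 165 and 95.4 CPM with vehicle. The groups did not overlap, with a log2 fold change of -0.83 ± 0.31 (SE) (edgeR adjusted p = 0.216; DESeq2 adjusted p = 0.102), and -0.51 without vehicle replicate 2.

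The 250 bases before the RefSeq starts of Itga5 and Itgav are shown because DESeq2 called both genes lower. The Itga5 sequence is chr15:103366792-103367041 on the minus strand and the Itgav sequence chr2:83724147-83724396 on the plus strand, written 5′ to 3′ along the gene with the same capitals as above.
Itga5: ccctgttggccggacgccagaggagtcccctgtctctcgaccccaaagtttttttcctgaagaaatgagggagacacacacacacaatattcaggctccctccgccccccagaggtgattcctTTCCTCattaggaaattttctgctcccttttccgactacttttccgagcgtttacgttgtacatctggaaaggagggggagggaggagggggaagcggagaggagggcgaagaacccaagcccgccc
Itgav: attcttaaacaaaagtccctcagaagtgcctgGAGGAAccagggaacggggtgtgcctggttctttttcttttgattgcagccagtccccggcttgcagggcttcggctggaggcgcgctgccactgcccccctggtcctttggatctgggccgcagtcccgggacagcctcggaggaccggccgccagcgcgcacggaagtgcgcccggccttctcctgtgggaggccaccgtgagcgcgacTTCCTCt
The core lay 127 bases before the start of Itga5, and 218 and 7 bases before that of Itgav. RefSeq windows of 250 bases before to 50 after the start were found for 23 of the 37 members (26 windows). The windows of Itga9, Itgb8, Lama2 and Lamb3 do not hold the gene start given with the counts. Nor does an alternative window of Itga3 and of Itgb6. On either strand, GAGGAA occurred in 28.27% of all 32817 windows, in 2 of 4 leukocyte integrin windows, 7 of 16 matrix integrin windows and 5 of 6 laminin windows. AGGTCA, an arm of the estrogen response element, occurred in 16.26% of all windows and in 0 of the 26 member windows. A match is a string of letters and not a bound site, and a missing match says only that these letters are not in the window.

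The remaining tested RGD chains averaged under 8 CPM in both groups. Itga8 averaged 1.24 ± 0.236 CPM under estrogen and 1.19 ± 0.442 CPM under vehicle, Itga2b, the platelet alphaIIb chain, averaged 7.73 ± 2.63 CPM under estrogen and 6.35 ± 2.12 CPM under vehicle, and Itgb8, which activates TGF-beta with alphaV, averaged 0.948 ± 0.603 CPM under estrogen and 1.23 ± 0.682 CPM under vehicle (SD, n = 3 each). Their log2 fold changes were 0.06, 0.28 and -0.38, with adjusted p values of 0.939, 0.649 and 0.757 in edgeR, and that of Itga8 was -0.11 when only library totals were used for scaling. Itgb6, an epithelial beta chain, had 39, 3 and 0 counts with estrogen, against 7, 8 and 3 counts with vehicle, and was not tested.

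Of the collagen receptor alpha chains, Itga11, which is known from fibroblasts, was at 12.6, 9.23 and 5.92 CPM with estrogen, against 10.01, 59.1 and 22.7 CPM with vehicle. Vehicle replicate 1 lay among the estrogen libraries and vehicle replicate 2 far above all others. The log2 fold change was -1.72 ± 0.62 (SE) (edgeR adjusted p = 0.212; DESeq2 adjusted p = 0.0431), and -0.82 without vehicle replicate 2. Per Pdgfra, a fibroblast and progenitor marker, Itga11 was 0.318, 0.299 and 0.322 with estrogen, against 0.199, 0.791 and 0.490 with vehicle, with overlap. Itga1, the alpha chain of a collagen receptor of mural and other stromal cells, was at 44.7, 47.2 and 44.1 CPM with estrogen, against 47.9, 39.5 and 48.5 CPM with vehicle. Its log2 fold change was 0.00036 (SE 0.12), or -0.17 with library totals only. Itga2, the alpha chain of a platelet and epithelial collagen receptor, was at 1.71, 1.18 and 0.209 CPM with estrogen, against 2.54, 2.07 and 1.91 CPM with vehicle. The groups did not overlap, at levels of a few CPM or less, with a log2 fold change of -1.04 ± 0.60 (SE) (edgeR adjusted p = 0.349), and -0.58 without estrogen replicate 3. Itga10, a cartilage collagen receptor chain, averaged 2.75 ± 0.518 CPM under estrogen and 3.21 ± 0.418 CPM under vehicle (SD, n = 3 each), a log2 fold change of -0.22.

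The laminin receptor chains lay near or above their vehicle levels. Itga7, the alpha chain of the laminin receptor of muscle, was the most abundant of them per kilobase in all 6 libraries, at 27.3, 22.9 and 24.3 CPM per kilobase with estrogen, against 24.9, 19.1 and 32.1 CPM per kilobase with vehicle. Its groups overlapped, with a log2 fold change of -0.03 ± 0.20 (SE) (edgeR adjusted p = 0.941), and estrogen replicate 1, high in muscle markers, was at 221 CPM beside 185 and 197 CPM in the other estrogen libraries. Itga6, the alpha6 chain of endothelial and epithelial laminin receptors, was at 109, 94.9 and 146 CPM with estrogen, against 79.4, 78.2 and 119 CPM with vehicle. The groups overlapped, with a log2 fold change of 0.34 ± 0.23 (SE) (edgeR adjusted p = 0.421). Itga3, the alpha3 chain, averaged 12.2 ± 3.52 CPM under estrogen and 8.94 ± 2.86 CPM under vehicle, and Itgb4, the beta4 partner of alpha6 in epithelia and Schwann cells, averaged 13.4 ± 0.996 CPM under estrogen and 12.8 ± 4.95 CPM under vehicle (SD, n = 3 each). Their log2 fold changes were 0.45 and 0.06, and that of Itgb4 was -0.12 with library totals only. Endothelial markers summed to 525 to 717 CPM with estrogen and 431 to 598 CPM with vehicle, and Schwann cell markers to 81.9 to 97.6 CPM with estrogen and 73.4 to 91.2 CPM with vehicle.

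Itgb1 encodes the beta1 chain that most matrix alpha chains need (ENSMUSG00000025809, chromosome 8, 128685654 to 128733200). It was the most abundant integrin chain in this tissue per kilobase, at 83.8, 79.6 and 66.3 CPM per kilobase with estrogen, against 99.0, 114 and 94.7 CPM per kilobase with vehicle. In CPM it was 342, 325 and 271 CPM with estrogen, against 404, 467 and 387 CPM with vehicle. The groups did not overlap, with a log2 fold change of -0.42 ± 0.15 (SE) (edgeR adjusted p = 0.212; DESeq2 adjusted p = 0.113). Itga5 per Itgb1, both per kilobase, was 0.0843, 0.128 and 0.0620 with estrogen, against 0.166, 0.187 and 0.136 with vehicle, so that the fibronectin receptor alpha chain lay lower relative to its beta chain in each estrogen library. Itga9, a receptor chain for tenascin-C and other ligands, averaged 9.59 ± 2.52 CPM under estrogen and 14.6 ± 3.95 CPM under vehicle (SD, n = 3 each), a log2 fold change of -0.60. The strand setting was not given in the sources used here. Reads of an antisense transcript inside Itga9, and of genes opposite Itgae and Itga7, may therefore be counted with those of the integrin. Pelo, at a mean of 3.34 CPM, overlaps the span of Itga1 on the same strand, where no strand setting would separate them.

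**Figure D3:**
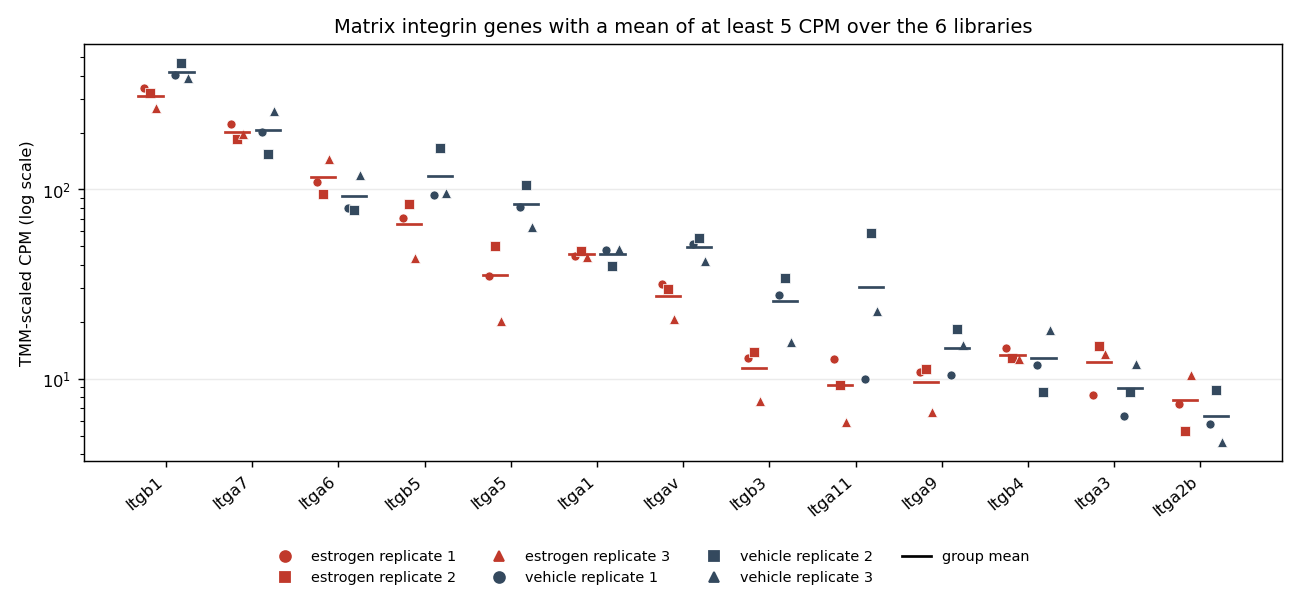
CPM on a log axis of the 13 matrix integrin genes with a mean of at least 5 CPM over the 6 libraries, estrogen in red left of vehicle in dark blue, with symbols for replicates 1 to 3 and lines for group means. Itgb1, Itgb5, Itga5, Itgav and Itgb3 do not overlap between the groups, while Itga7, Itga6 and Itga1 do.

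No laminin gene passed an adjusted p of 0.05, and most had a negative log2 fold change. Of 11 genes 10 were tested, 8 with a negative and 2 with a positive log2 fold change, and the median was -0.53. Of the 10, 4 were lower at an unadjusted p under 0.05 in edgeR, against 10.9% of all tested genes. Among them were Lamc1, Lama4 and Lama2. Both edgeR and DESeq2 called 0 laminin genes at an adjusted p under 0.05. Of the 10, 2 were lower without overlap between the groups, against 14.7% of all tested genes. Lamc1, Lama2 and Lamb2 were lowest in estrogen replicate 3 and highest in vehicle replicate 2, as were the progenitor and fibroblast markers (2767, 3827 and 930.3 CPM with estrogen, against 6483, 15340.3 and 5525 CPM with vehicle), whose part in the laminin differences was not tested. Adipocytes and endothelial cells mainly use trimers with an alpha4 or alpha5 chain, beta1 or beta2, and gamma1.

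Lamc1, the gamma1 chain present in most laminins, was the most abundant laminin chain per kilobase, at 45.0, 41.6 and 24.3 CPM per kilobase with estrogen, against 53.1, 87.3 and 57.0 CPM per kilobase with vehicle (ENSMUSG00000026478, chromosome 1, 153218922 to 153332786). In CPM it was 373, 344 and 201 CPM with estrogen, against 439, 722 and 471 CPM with vehicle. The groups did not overlap, with a log2 fold change of -0.83 ± 0.29 (SE) (edgeR adjusted p = 0.209; DESeq2 adjusted p = 0.0755), and -0.57 without vehicle replicate 2. Lamc3 averaged 13.1 ± 1.55 CPM under estrogen and 12.6 ± 3.58 CPM under vehicle (SD, n = 3 each), a log2 fold change of 0.05 that was -0.13 with library totals only.

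Lama4, the alpha4 chain of adipocyte and endothelial basement membranes, was at 249.5, 252 and 199 CPM with estrogen, against 287, 373 and 304 CPM with vehicle. All estrogen libraries were below all vehicle libraries, with a log2 fold change of -0.46 ± 0.17 (SE) (edgeR adjusted p = 0.212; DESeq2 adjusted p = 0.118). Lama2, the alpha2 chain of muscle and nerve, was at 47.4, 39.2 and 15.9 CPM with estrogen, against 39.9, 130.4 and 71.4 CPM with vehicle. Vehicle replicate 1 lay within the estrogen range and vehicle replicate 2 far above it, with a log2 fold change of -1.24 ± 0.51 (SE) (edgeR adjusted p = 0.237), and -0.70 without vehicle replicate 2. Estrogen replicate 1, high in muscle markers, had the highest Lama2 of its group. Lama2 per Pdgfra was 0.374, 0.399 and 0.271 with estrogen, against 0.249, 0.548 and 0.484 with vehicle, with overlap. Lama3, an epithelial alpha chain, averaged 1.89 ± 0.303 CPM under estrogen and 2.86 ± 0.634 CPM under vehicle (SD, n = 3 each), a log2 fold change of -0.61. Lama1, an embryonic alpha chain, had 0, 0 and 0 counts with estrogen, against 1, 2 and 9 counts with vehicle, and was not tested. A count of 3, taken as the floor of detection, equals 0.156, 0.196 and 0.209 CPM in estrogen replicates 1 to 3 and 0.152, 0.152 and 0.130 CPM in vehicle replicates 1 to 3, and it covers counting error only.

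Lama5, the alpha5 chain of mature endothelial and epithelial basement membranes (ENSMUSG00000015647, chromosome 2, 180176373 to 180225859), was at 50.4, 50.6 and 66.7 CPM with estrogen, against 29.0, 37.4 and 59.8 CPM with vehicle. It was higher in estrogen replicates 1 and 2 than in vehicle replicates 1 and 2, but vehicle replicate 3 lay above both, with a log2 fold change of 0.41 ± 0.27 (SE) (edgeR adjusted p = 0.406). As a share of the summed CPM per kilobase of the alpha chains, Lama5 made up 15.7, 15.96 and 24.9% with estrogen, against 8.78, 7.73 and 14.9% with vehicle. These shares did not overlap, averaging 18.8 ± 5.22% with estrogen and 10.5 ± 3.89% with vehicle (SD, n = 3 each), while the share of Lama4 was 73.4, 74.8 and 70.1% with estrogen, against 82.1, 72.7 and 71.7% with vehicle and overlapped. Estrogen replicate 1 (15.7%) lay close above vehicle replicate 3 (14.9%) in the share of Lama5. This share also depends on Lama4 and Lama2, which had negative log2 fold changes, and in CPM the groups overlapped for Lama5. Lama4 per Lama5 was 4.67, 4.69 and 2.82 with estrogen, against 9.35, 9.41 and 4.802 with vehicle. The 250 bases before the RefSeq start of Lama5 (chr2:180225860-180226109 on the minus strand, GRCm38.p6) are shown because its share separates the groups, with GAGGAA in capitals.
Lama5: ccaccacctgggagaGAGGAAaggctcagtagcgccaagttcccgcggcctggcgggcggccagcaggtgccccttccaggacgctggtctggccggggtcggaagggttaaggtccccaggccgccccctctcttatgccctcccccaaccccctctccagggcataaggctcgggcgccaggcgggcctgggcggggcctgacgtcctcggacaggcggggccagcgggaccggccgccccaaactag
The core lay 235 bases before the start.

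Lamb1 and Lamb2 were close to each other in level per kilobase. Lamb1, the beta1 chain, was at 293, 243 and 228 CPM with estrogen, against 242, 409 and 382 CPM with vehicle. Vehicle replicate 1 lay among the estrogen libraries, with a log2 fold change of -0.43 ± 0.22 (SE) (edgeR adjusted p = 0.302). Lamb2, the beta2 chain of vascular and synaptic laminins, was at 164, 165 and 107 CPM with estrogen, against 147, 303 and 224 CPM with vehicle. It overlapped too, with a log2 fold change of -0.63 ± 0.29 (SE) (edgeR adjusted p = 0.266), and -0.35 without vehicle replicate 2. Per kilobase, Lamb2 per Lamb1 was 0.911, 1.11 and 0.762 with estrogen, against 0.992, 1.21 and 0.955 with vehicle. Lamb3, the epithelial beta3 chain, averaged 4.39 ± 2.03 CPM under estrogen and 5.57 ± 1.29 CPM under vehicle (SD, n = 3 each), a log2 fold change of -0.34 that was 0.20 with estrogen replicates 1 and 3 both left out. Its span holds Hsd11b1 and G0s2 on the opposite strand, at means of 356 and 150 CPM, so that its own reads are uncertain.

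**Figure D4:**
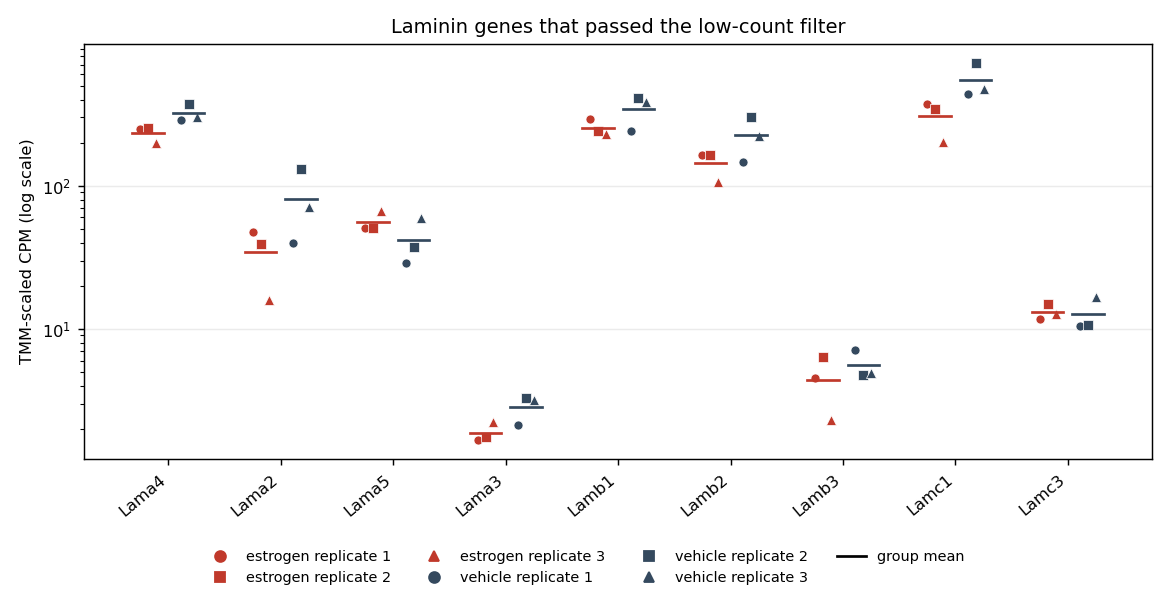
CPM on a log axis of laminin genes that passed the low-count filter, estrogen in red left of vehicle in dark blue, with symbols for replicates 1 to 3 and lines for group means. Lamc1 and Lama4 do not overlap between the groups, and Lama5 is the alpha chain with a higher mean with estrogen.

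**Figure D5:**
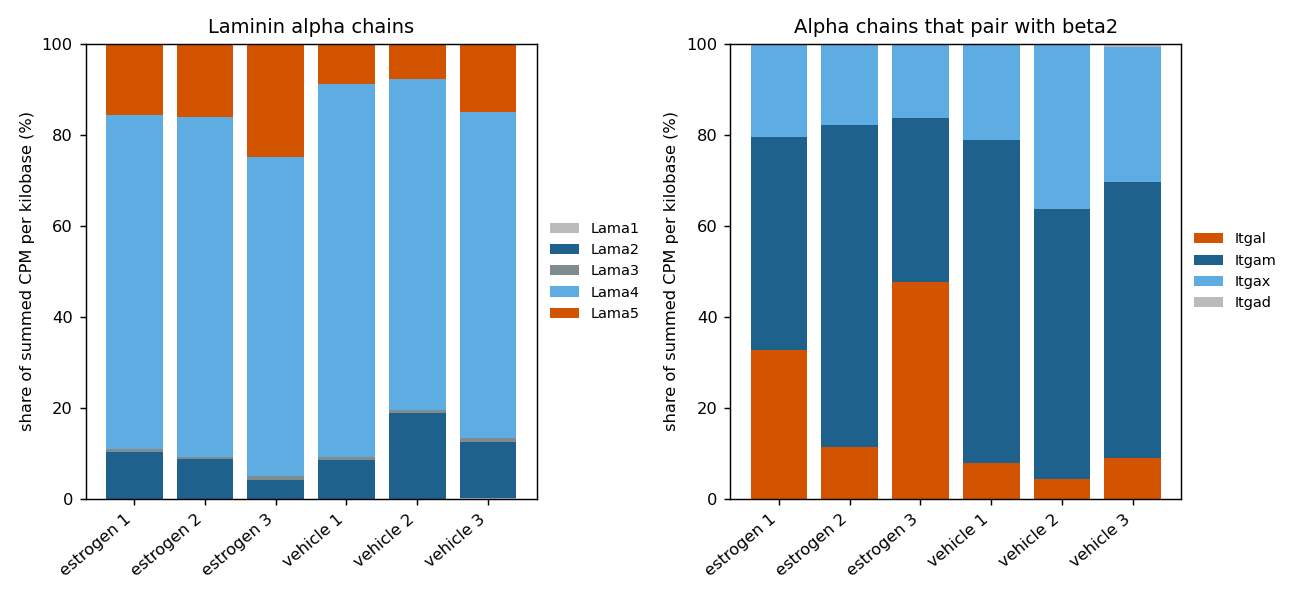
Stacked shares (%) of the summed CPM per kilobase in each library, for laminin alpha chains (left) and for the alpha chains that pair with beta2 (right), estrogen libraries left of vehicle libraries. Lama5 takes 15.7 to 24.9% with estrogen and 7.73 to 14.9% with vehicle, and Itgal 11.3 to 47.6% with estrogen and 4.40 to 8.999% with vehicle.

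Among proteins that accompany laminins in the basement membrane, DESeq2 called Ntn4 lower with estrogen and edgeR called 0. Of 15 genes 14 were tested, 11 with a negative and 3 with a positive log2 fold change, and the median was -0.34. At an unadjusted p under 0.05, edgeR had 3 of 14 lower and 0 higher, against 10.9% of all tested genes lower, and DESeq2 called 1 of 14 lower, against 2.97%. Ntn4, a netrin that caps laminin polymers, was at 16.3, 16.4 and 10.4 CPM with estrogen, against 22.9, 36.1 and 22.2 CPM with vehicle. Its groups did not overlap, with a log2 fold change of -0.91 ± 0.26 (SE) (edgeR adjusted p = 0.207; DESeq2 adjusted p = 0.0466). Nid1, nidogen-1, which joins laminin gamma1 to collagen IV, was at 605, 588 and 416 CPM with estrogen, against 685, 1355 and 812 CPM with vehicle. Its groups did not overlap, with a log2 fold change of -0.83 ± 0.29 (SE) (edgeR adjusted p = 0.209; DESeq2 adjusted p = 0.0718). Col15a1, a basement membrane zone collagen, had a log2 fold change of -0.63, and Col4a5, a collagen IV chain, of -1.59. All 4 of these genes were lowest in estrogen replicate 3, the library lowest in progenitor and fibroblast markers, and the part of those markers was not tested.

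The proteins that activate integrins or tie them to actin included genes of both directions. Of 28 genes 27 were tested, 18 with a negative and 9 with a positive log2 fold change, and the median was -0.21. edgeR had 7 of 27 lower and 1 higher at an unadjusted p under 0.05, against 10.9% and 9.49% of all tested genes, and called 0 at an adjusted p under 0.05. DESeq2 called 3 of 27 lower and 0 higher, against 2.97% and 2.38%. Actn1, the actin crosslinker alpha-actinin-1, was at 42.1, 33.7 and 35.4 CPM with estrogen, against 56.3, 66.6 and 50.8 CPM with vehicle. Its groups did not overlap, with a log2 fold change of -0.64 ± 0.15 (SE) (edgeR adjusted p = 0.207; DESeq2 adjusted p = 0.0267). Zyx, the focal adhesion protein zyxin, was at 80.2, 90.2 and 52.8 CPM with estrogen, against 146, 181 and 109 CPM with vehicle, a log2 fold change of -0.97 ± 0.26 (SE) (edgeR adjusted p = 0.207; DESeq2 adjusted p = 0.0247). Rap1b, a small GTPase that activates integrins, had a log2 fold change of -0.63 ± 0.18 (SE) (edgeR adjusted p = 0.207; DESeq2 adjusted p = 0.0490). Apbb1ip encodes RIAM, which brings talin to integrins in leukocytes, and had a log2 fold change of -0.88 ± 0.28 (SE) (edgeR adjusted p = 0.207; DESeq2 adjusted p = 0.0737).

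The 10 matrix ligands of integrins had 8 negative and 2 positive log2 fold changes and a median of -2.12. edgeR called 0 of the 10 at an adjusted p under 0.05 and had 7 of 10 lower and 0 higher at an unadjusted p under 0.05, against 10.9% of all tested genes lower, and DESeq2 called Postn and Fn1 lower, 2 of 10 against 2.97%. Fn1, fibronectin, the ligand of the Itga5 receptor, was at 1000.1, 1032 and 129 CPM with estrogen, against 3102, 5559.9 and 1823 CPM with vehicle. Its groups did not overlap and estrogen replicate 3 was far below the others, with a log2 fold change of -2.28 ± 0.77 (SE) (edgeR adjusted p = 0.208; DESeq2 adjusted p = 0.0469). Tnc, tenascin-C, a ligand of the Itga9 receptor, was at 17.6, 37.5 and 5.22 CPM with estrogen, against 68.1, 419 and 48.0 CPM with vehicle. Vehicle replicate 2 was far above the others, and the log2 fold change was -3.15 ± 1.02 (SE) (edgeR adjusted p = 0.207; DESeq2 adjusted p = 0.0762). Postn, periostin, a ligand of alphaV integrins, had a log2 fold change of -2.19 ± 0.51 (SE) (edgeR adjusted p = 0.207; DESeq2 adjusted p = 0.00116), and Fbln5, fibulin-5, which binds RGD receptors, of -0.62 ± 0.23 (SE) (edgeR adjusted p = 0.212; DESeq2 adjusted p = 0.128). Progenitor and fibroblast markers were lowest and highest in the same estrogen replicate 3 and vehicle replicate 2, and their part in these differences was not tested. Col1a1 is in both this marker list and the ligand list, so the lists are not independent.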

How the data were processed

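RNA-seq counts of 6 libraries of inguinal fat, 3 per treatment, were used. What the authors deposited are raw counts per gene, without normalization. HISAT2, featureCounts and the mm10 build are named per the submitters' processing notes, while versions, strand setting and annotation were not given in the sources used here. Deposited columns were matched to samples by their descriptions, and no library pair within a group agreed within sampling noise. Counts were TMM-scaled, filtered with filterByExpr defaults (15591 genes kept) and compared with edgeR's quasi-likelihood test, two-sided and unpaired. P-values were adjusted by Benjamini-Hochberg over every tested gene and called under 0.05. Log2 fold changes are estrogen over vehicle. CPM per kilobase used the deposited gene lengths. Software was edgeR 4.0.16, DESeq2 1.42.0 and limma 3.58.1 in R 4.3.3, and the gene test was tested on simulated data.

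The members, gene lists and grouping by ligand were chosen with earlier results of these data known. All members enter the counts and medians, and the values of 1 of them are not reported here. Values in each library were given for the members of smallest p in each class and for those on which the contrast between classes turned, and up to 4 genes of smallest p were named in each other list. Icam2, F11r, Thy1 and Cdh1 are those of the counter-receptors.

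Replicate numbers are those of the sample titles. The deposited column names carry the numbers 1, 2 and 4 for estrogen and 1, 3 and 4 for vehicle, so that title number 2 joins columns of different number. Libraries of the same title number were compared by the correlation of their deviations from the group means. It was -0.13, 0.20 and 0.31 for numbers 1, 2 and 3. This does not settle whether the numbers pair the samples, which the labels do not say, and the main test was unpaired. Alternatives were DESeq2, limma-voom, RLE scaling, library totals only, no low-count filter, at least 1 CPM in 3 libraries, leaving out each library in turn and a replicate block. Leaving out estrogen replicates 1 and 3 together was chosen after seeing the data, and the lone estrogen library was then assumed to vary like the others. RefSeq promoter windows are of GRCm38.p6, and no protein sequences were used.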

Additional observations from a re-analysis of the deposited data

How the results depend on the processing

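No alternative turned a class median, and edgeR or limma-voom called 0 members in each one. Called members numbered 5 lower and 0 higher with DESeq2. The median of matrix integrins was -0.57 with library totals only, a scaling that shifted the median of all genes by -0.17. Leaving out each library in turn, the leukocyte median ranged from -1.25 to -0.30, the matrix median from -0.44 to -0.27 and the laminin median from -0.71 to -0.40, with 0 members called. With a replicate block, the medians were -0.71 for leukocyte integrins, -0.41 for matrix integrins and -0.52 for laminins, 0 members were called, and 13 were lower and 3 higher at an unadjusted p under 0.05. The smallest adjusted p of a member was then 0.0594 in edgeR (Itga5 and Itgb3), with Itgav at 0.0649 and Itgax at 0.0804. Estrogen replicates 2 and 3 correlated best with the vehicle libraries of the same number (0.20 and 0.31). Estrogen replicate 1 correlated best with vehicle replicate 2 (0.14) and at -0.13 with vehicle replicate 1. The count lower at an unadjusted p under 0.05 was 13 with all libraries, 17 with library totals only, 16 with no low-count filter and 5 to 15 over the fits that each left out 1 library. The share of all tested genes at that p was not counted in the alternatives, so these counts have none beside them. Of 34 tested members, 27 kept their sign under all 13 alternatives other than leaving out a pair of libraries, and Itga1, Itga7, Itga8, Itgb4, Itgb7, Itgb8 and Lamc3 did not. The causes were not tested. Genes near 3 counts, such as Itgad and Lama1, are limited by depth.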
